A study of Homo sapiens with 10 samples.

Results

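Polycomb repressive complex 2 (PRC2) was followed through 10 of its genes, taken by name: EZH1 and EZH2 encode the alternative catalytic subunits, EED, SUZ12 and RBBP4 the rest of the core, MTF2, PHF1 and PHF19 the Polycomb-like accessory subunits, and JARID2 and AEBP2 the accessory subunits of the other form of the complex. They were 10 of the 31017 rows of an RNA-seq count table, and the start of each gene lay in 1 of the 21833 promoter fragments that had a called contact in Promoter Capture Hi-C (PCHi-C), a method that enriches Hi-C ligation products for those holding a promoter. The genes were taken by name and by no measured value, though earlier results of these data were known when they were chosen.

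PRC2 places methyl groups on lysine 27 of histone H3, a mark of silent developmental genes. EZH1 or EZH2 carries the SET domain that transfers the methyl group, EED reads the finished mark, SUZ12 is the scaffold that holds the complex together, and RBBP4 is a histone-binding protein that also serves in other chromatin complexes. The accessory subunits do not occur together: a core bound by a Polycomb-like protein (MTF2, PHF1 or PHF19) forms one class of the complex, and a core bound by JARID2 and AEBP2 the other, and both sets of subunits help PRC2 to find CpG-rich DNA. In embryonic stem cells PRC2 keeps many lineage genes silent but poised.

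The study compared human embryonic stem cells (ESC) of the established line H9, grown in Pluripro medium, with neuroectodermal cells (NEC) derived from the same line and harvested on day 7 of differentiation. Each cell type had 2 RNA-seq libraries and 2 PCHi-C libraries, all labelled as biological replicates, and the authors added contact lists that merged the 2 replicates of a cell type. Both cell types came from this 1 line, with no knockout or transgene named in the labels, which limits what the replicates stand for. The Hi-C libraries of the series were not used here.

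The RNA-seq libraries held 19234087 to 25356382 counts, and 17564 genes had enough counts to be tested. All 10 pluripotency markers listed for the check of the labels were lower in NEC and all 10 neuroectoderm markers were higher, by edgeR's quasi-likelihood test at an adjusted p under 0.05. By the same test 31.5% of all tested genes were higher in NEC and 29.7% lower. The summed level of the pluripotency markers was 6780 and 7280 CPM (counts scaled to a fixed library total) in the ESC libraries and 1100 and 1690 CPM in the NEC libraries. Of 10 neural crest markers 6 were higher and 1 lower in NEC, and their summed level was 272 CPM in NEC replicate 1 and 131 CPM in NEC replicate 2, against 149 and 137 CPM in ESC. Of 9 tested mesendoderm markers 8 were lower in NEC, and their summed level was 92.2 CPM in ESC replicate 1, 221 CPM in ESC replicate 2 and 8.10 and 8.07 CPM in the NEC libraries. In the ESC libraries 1 neuroectoderm marker and 1 neural crest marker had no count, and no marker of the 4 lists was without counts in NEC. The part of these cell types in the PRC2 values was not tested, and the RNA libraries of each cell type came from a sequencing lane of their own, so lane and cell type cannot be told apart. In bulk RNA, fewer cells of a type and less RNA per cell cannot be told apart either.

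The promoters of 3 members are shown because they hold the clearest differences in sequence among the genes described next. Each is a RefSeq window on GRCh38.p14 from 250 bases before to 50 bases after a gene start, read on the gene's strand. Capitals mark the letters TTTGGCGC (an E2F site), CCAAT (the box bound by NF-Y), TGACGTCA (a cAMP response element) and GCGCATGCG (an NRF1 site), searched on both strands, and no match overlapped another. These motifs were picked after the letters had been seen. The windows were chr7:148884242-148884541 (minus strand, the first of 2 starts listed for EZH2), chr17:42744991-42745290 (minus strand, EZH1) and chr6:15248605-15248904 (plus strand, the second of 2 starts listed for JARID2).
EZH2 promoter: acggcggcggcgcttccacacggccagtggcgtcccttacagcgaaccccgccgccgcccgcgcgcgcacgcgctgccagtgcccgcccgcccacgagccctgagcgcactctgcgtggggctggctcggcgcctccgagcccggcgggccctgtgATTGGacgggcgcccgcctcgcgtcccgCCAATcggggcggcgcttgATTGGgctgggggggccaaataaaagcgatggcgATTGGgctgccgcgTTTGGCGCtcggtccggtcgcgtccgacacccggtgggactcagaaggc
EZH1 promoter: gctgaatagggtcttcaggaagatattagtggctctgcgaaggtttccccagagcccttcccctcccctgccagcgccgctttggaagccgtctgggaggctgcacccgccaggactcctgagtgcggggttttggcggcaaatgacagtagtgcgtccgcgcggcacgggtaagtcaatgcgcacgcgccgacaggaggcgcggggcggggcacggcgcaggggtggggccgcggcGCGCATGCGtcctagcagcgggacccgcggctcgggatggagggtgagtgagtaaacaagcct
JARID2 promoter: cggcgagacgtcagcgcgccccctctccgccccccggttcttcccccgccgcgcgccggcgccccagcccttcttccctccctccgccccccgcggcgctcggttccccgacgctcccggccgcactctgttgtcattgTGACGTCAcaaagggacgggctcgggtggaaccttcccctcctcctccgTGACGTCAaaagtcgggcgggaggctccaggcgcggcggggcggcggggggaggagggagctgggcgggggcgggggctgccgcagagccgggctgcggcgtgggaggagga
The EZH2 window held 1 E2F site, which 0.652% of all 35116 promoter windows of this length held. It also held 4 CCAAT boxes, where 34.6% of the windows held at least 1 and 3.26% at least 3. E2F proteins switch on genes of cell division, and EZH2 is a known target of theirs. The EZH1 window held neither motif but had 1 NRF1 site, found in 1.92% of windows. The JARID2 window held 2 cAMP response elements, where 1.85% of windows held at least 1 and 0.0598% at least 2. The other window listed for JARID2 held no cAMP response element, and the other EZH2 window held none of these motifs. No other member's windows held the E2F, cAMP response or NRF1 letters, while windows of 6 of the 10 members held a CCAAT box. All 3 windows shown were found letter for letter inside the GRCh37 fragments that served as promoter baits for these genes. A match is a description of the letters, not of a bound factor.

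Of the 10 members, 9 passed the test between ESC and NEC, 5 of them higher and 4 lower in NEC (edgeR quasi-likelihood test, adjusted p under 0.05 over all genes tested). Among all tested genes 61.1% passed, 31.5% as higher and 29.7% as lower, so a change of either kind was common in these data. The genes that rose were EZH1, EZH2, EED, RBBP4 and PHF1, and those that fell were SUZ12, MTF2, JARID2 and AEBP2. PHF19 did not pass. JARID2 was the only member that also passed an absolute log2 fold change of 1.5, the size the study asked for, which 21% of all tested genes passed. The CPM of the 2 ESC and the 2 NEC libraries did not overlap for the 9 members that passed, as was so for 83.8% of all tested genes. The median log2 fold change was 0.17 over the members and 0.01 over all tested genes, on a scale where a positive value means a higher level in NEC.

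**Figure D1:**
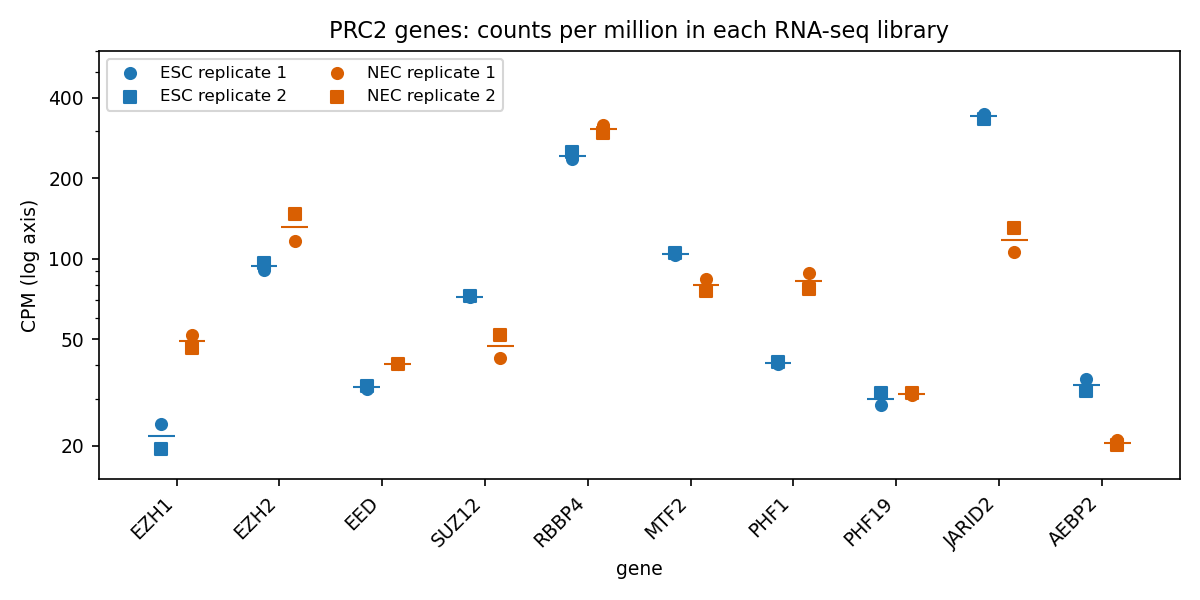
CPM of each PRC2 gene (log axis) in the 2 ESC libraries (blue) and the 2 NEC libraries (orange); circles are replicate 1, squares replicate 2 and short lines the group means. JARID2 lay at 349 and 334 CPM in ESC and at 106 and 130.3 CPM in NEC, and EZH1 and PHF1 moved the other way.

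**Figure D2:**
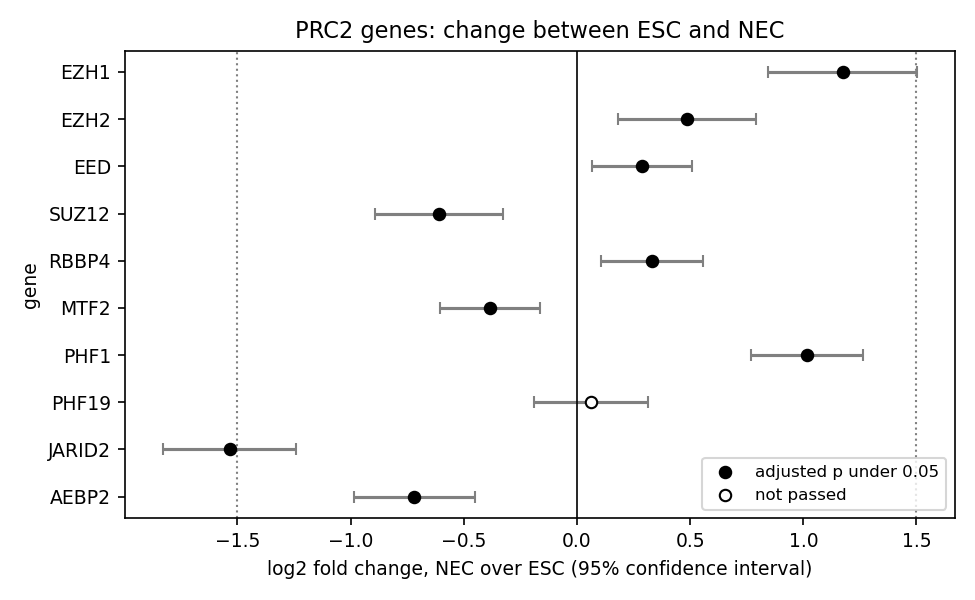
Log2 fold change of each PRC2 gene, NEC over ESC, with its 95% confidence interval from edgeR. Filled points passed an adjusted p of 0.05, the open point (PHF19) did not, and dotted lines stand at an absolute log2 fold change of 1.5, which the JARID2 point at -1.53 just passed.

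Both catalytic subunits rose, EZH1 more than EZH2. EZH1 (ENSG00000108799, chr17:40852294-40897071, GRCh37, minus strand) encodes the enzyme usually found in cells that divide little. It had 24.2 and 19.4 CPM in ESC replicates 1 and 2 and 51.7 and 46.5 CPM in NEC replicates 1 and 2. Every NEC library was above both ESC libraries, with means of 21.8 ± 3.42 CPM in ESC and 49.1 ± 3.72 CPM in NEC (SD, n = 2 each) and EZH1 rose by 1.17 on the log2 scale (SE 0.14, adjusted p = 0.000632, edgeR). EZH2 (ENSG00000106462, chr7:148504475-148581413, minus strand) encodes the enzyme of dividing cells. It had 90.9 and 96.8 CPM in ESC and 116 and 147 CPM in NEC. The NEC libraries were again higher, with the wider spread of 131 ± 21.5 CPM against 93.8 ± 4.20 CPM in ESC (SD, n = 2 each), and the log2 fold change was 0.49 (SE 0.13, adjusted p = 0.0151, edgeR). Without ESC replicate 1 the change of EZH2 was 0.42 and no longer passed (adjusted p = 0.0754). Of 10 genes of cell proliferation, listed because EZH2 follows division, 1 rose and 4 fell, where 31.5% and 29.7% of all tested genes did. The median log2 fold change of the 10 was -0.13. MCM5, a replicative helicase subunit, changed by -1.004 (adjusted p = 0.000456, edgeR) and TOP2A, a topoisomerase of dividing cells, by 0.73 (adjusted p = 0.00149, edgeR).

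Per kilobase, EZH2 was the more abundant of the catalytic transcripts in all 4 libraries. Counts were divided by the length of each gene's merged exons, and EZH2 then made up 71.1% and 76.6% of the EZH1 and EZH2 reads per kilobase in the ESC libraries and 59.6% and 67.4% in the NEC libraries. Both NEC values were below both ESC values, at 63.5 ± 5.54% against 73.9 ± 3.89% (SD, n = 2 each). A permutation of 2 against 2 libraries cannot reach a p under 0.05, so no test was made. The level of the share rests on the length used: with the canonical transcript's length, an alternative chosen after the data had been seen, it was 88.2% in ESC and 82.2% in NEC.

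The other core subunits did not move together. EED (ENSG00000074266, chr11:85955586-85989781, plus strand), which binds the methylated histone tail, had 32.7 and 33.5 CPM in ESC and 40.4 CPM in each NEC library. The groups did not overlap and each was tight, and the log2 fold change was 0.29 (SE 0.09, adjusted p = 0.0324, edgeR). This call was lost when any 1 of the 4 libraries was left out (adjusted p from 0.059 to 0.218) and under DESeq2 (adjusted p = 0.113). RBBP4 (ENSG00000162521, chr1:33116743-33146258, plus strand), the histone-binding subunit, had 236 and 250.3 CPM in ESC and 318 and 295 CPM in NEC. Both NEC values were higher, by 0.33 on the log2 scale (SE 0.09, adjusted p = 0.0207, edgeR), and the call was lost without ESC replicate 1 (adjusted p = 0.216) or ESC replicate 2 (adjusted p = 0.108). RBBP4 overlaps SYNC on the other strand, and reads were counted without regard to strand, so reads of the overlap cannot be assigned.

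SUZ12 (ENSG00000178691, chr17:30264056-30328064, plus strand), the scaffold, fell while the other core subunits rose. It had 71.8 and 72.4 CPM in ESC and 42.5 and 52.0 CPM in NEC. Both NEC libraries were below both ESC libraries, and the difference was -0.61 on the log2 scale (SE 0.12, adjusted p = 0.00468, edgeR). Its partial copy on the same chromosome, the pseudogene SUZ12P, moved the other way, from 15.6 and 14.9 CPM in ESC to 23.2 and 21.0 CPM in NEC (log2 fold change 0.54, SE 0.13, adjusted p = 0.0101). How reads that match both were counted is uncertain, and the sum of the 2 rows was 87.3 and 87.2 CPM in ESC and 65.7 and 73.0 CPM in NEC, still with no overlap between the groups.

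Among the Polycomb-like subunits PHF1 rose, MTF2 fell and PHF19 did not pass. PHF1 (ENSG00000112511, chr6:33378176-33384230, plus strand), which reads methylated lysine 36 of histone H3 through its Tudor domain as its relatives do, had 40.4 and 41.2 CPM in ESC and 88.2 and 76.9 CPM in NEC. Each NEC library was well above both ESC libraries, with means of 82.6 ± 7.98 and 40.8 ± 0.572 CPM (SD, n = 2 each) and a difference of 1.02 on the log2 scale (SE 0.10, adjusted p = 0.000369, edgeR). PHF1 overlaps the end of CUTA on the other strand. MTF2 (ENSG00000143033, chr1:93544792-93604638, plus strand), the Polycomb-like subunit best known in ESC, had 103 and 105 CPM in ESC and 84.2 and 75.8 CPM in NEC. Both NEC values were lower (log2 fold change -0.38, SE 0.09, adjusted p = 0.0110, edgeR), and without ESC replicate 2 the call was lost (adjusted p = 0.0655). PHF19 (ENSG00000119403, chr9:123617976-123639606, minus strand) had 28.5 and 31.5 CPM in ESC and 31.0 and 31.5 CPM in NEC, groups that overlapped. Its log2 fold change was 0.06, with a 95% interval from -0.19 to 0.31 (adjusted p = 0.637).

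Both accessory subunits of the other class fell. JARID2 (ENSG00000008083, chr6:15245734-15522252, plus strand), a Jumonji family protein without demethylase activity that helps bring PRC2 to its targets, had 349 and 334 CPM in ESC and 106 and 130.3 CPM in NEC. The ESC libraries were close to each other and far above both NEC libraries, with means of 342 ± 10.3 and 118 ± 17.5 CPM (SD, n = 2 each), a 2.9-fold higher level in ESC. The log2 fold change was -1.53 (SE 0.12, adjusted p = 0.000160, edgeR), and its 95% interval, from -1.83 to -1.24, held the threshold of 1.5 in size. Without NEC replicate 1 the value was -1.39 and with library size as the only scaling -1.47, both short of that threshold and both past the adjusted p. AEBP2 (ENSG00000139154, chr12:19556979-19873735, plus strand), a zinc finger protein that binds SUZ12 beside JARID2, had 35.4 and 32.1 CPM in ESC and 21.0 and 20.1 CPM in NEC. Both NEC values were lower, and the log2 fold change was -0.72 (SE 0.11, adjusted p = 0.00189, edgeR).

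With these opposite changes the make-up of the accessory transcripts differed between the cell types. JARID2 gave 59.4% and 58.0% of the reads per kilobase of the 5 accessory genes in the ESC libraries and 26.7% and 33.2% in the NEC libraries. PHF1 gave 11.9% and 12.4% in ESC and 38.5% and 33.9% in NEC. JARID2 thus led in both ESC libraries and PHF1 in both NEC libraries, and JARID2 and AEBP2 together went from 64.0 ± 1.29% to 34.7 ± 4.53% (SD, n = 2 each). The shares of MTF2 were 18.5% and 19.3% in ESC and 22.4% and 20.4% in NEC. With canonical transcript lengths JARID2 still led in both ESC libraries (50.9% and 49.4%) and PHF1 in both NEC libraries (44.1% and 39.8%), while the shares of MTF2 overlapped. As transcripts these shares say nothing of how much protein of either class was assembled.

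**Figure D3:**
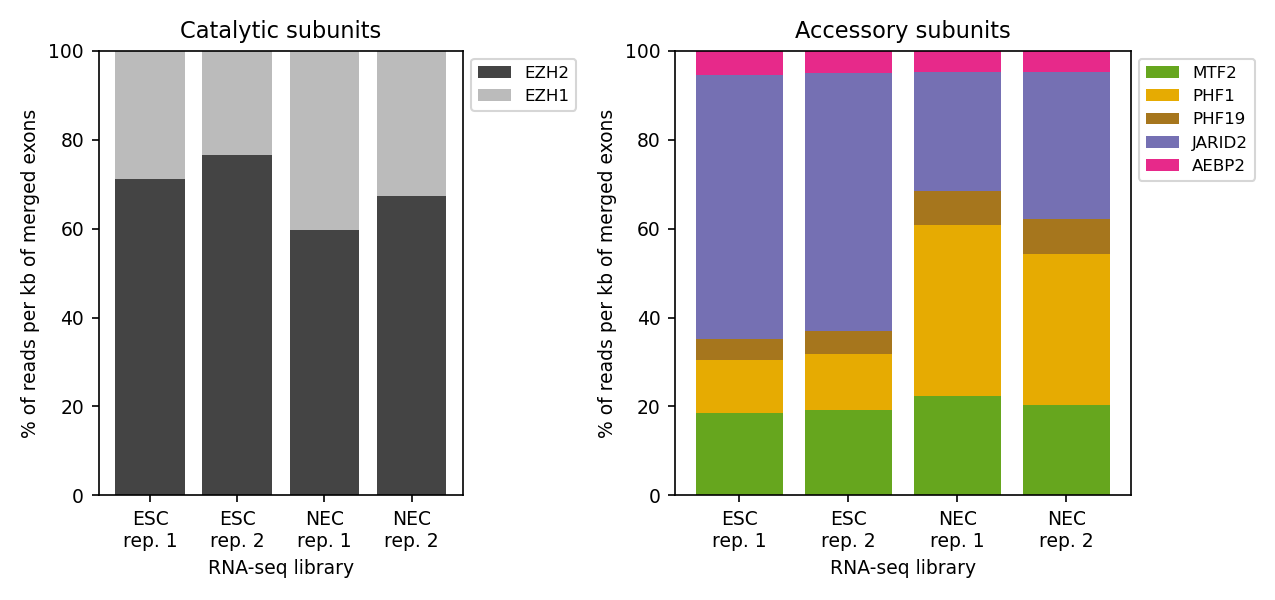
Shares of the reads per kilobase of merged exons in each RNA-seq library, for EZH2 and EZH1 (left, percent of both) and for the 5 accessory genes (right, percent of the 5). Each bar is 1 library; EZH2 took 71.1% and 76.6% in ESC and 59.6% and 67.4% in NEC, and JARID2 took 59.4% and 58.0% in ESC and 26.7% and 33.2% in NEC.

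Ordered by CPM per kilobase of merged exons, RBBP4 came first in both cell types, at 62.1 ± 2.50 in ESC and 78.2 ± 4.06 in NEC (SD, n = 2 each). JARID2 followed in ESC at 54.9 ± 1.65, ahead of MTF2 at 17.7 ± 0.263, and EZH1 was lowest at 3.12 ± 0.489. AEBP2 (4.99 ± 0.352), EED (4.91 ± 0.0845) and PHF19 (4.65 ± 0.332) overlapped in ESC and had no order among themselves. In NEC the second place went to PHF1 at 23.0 ± 2.22, above JARID2 at 19.0 ± 2.81 in each library, and AEBP2 was lowest at 3.03 ± 0.0942. MTF2 (13.5 ± 1.01) and EZH2 (12.3 ± 2.02) overlapped in NEC, as did SUZ12 (7.25 ± 1.04) and EZH1 (7.02 ± 0.532). This order rests on the lengths, which come from gene models newer than those used for counting. With canonical transcript lengths, chosen after the data had been seen, JARID2 came first in ESC at 56.9 ± 1.71. EZH2 at 35.4 ± 1.58 and RBBP4 at 30.9 ± 1.24 followed. In NEC EZH2 at 49.5 ± 8.09, RBBP4 at 38.9 ± 2.02 and PHF1 at 36.5 ± 3.52 were the highest. The RBBP4 canonical transcript (7883 bp) is longer than its merged exons (3916 bp), which were cut at the limits used for counting. Its canonical length thus reaches beyond the counted region, which lowers its value, so its place in that order is uncertain.

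The remaining PRC2 components and the complexes that work with or against PRC2 were read from further lists. The counts here and in the next paragraph stand against 61.1% of all tested genes that passed, 31.5% higher and 29.7% lower. Of 5 other PRC2 components 4 were tested and all 4 rose, with a median log2 fold change of 0.58: C17orf96 (EPOP), a partner of the Polycomb-like class, rose from 19.1 and 11.3 CPM to 60.2 and 76.2 CPM (log2 fold change 2.17, adjusted p = 0.000593), and RBBP7, the close paralogue of RBBP4, by 0.46 (adjusted p = 0.00943). CXorf67 (EZHIP) had 1 count over the 4 libraries and was not tested. Of 22 genes of PRC1, the complex that ubiquitinates histone H2A and binds the PRC2 mark, 12 rose and 5 fell, with a median of 0.31. CBX8, a chromodomain subunit that reads the mark, rose by 3.67 on the log2 scale (adjusted p = 0.000362). The paralogues PHC2 and PHC1 went in opposite directions, PHC2 from 25.3 and 16.6 CPM to 208 and 176 CPM (log2 fold change 3.21, adjusted p = 8.04e-05) and PHC1 from 770.4 and 764 CPM to 192 and 184 CPM (log2 fold change -2.03, adjusted p = 3.22e-05).

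The demethylases that remove the PRC2 mark also split: KDM6A changed by -1.08 (adjusted p = 0.000252) and KDM6B by 0.90 (adjusted p = 0.0419) on the log2 scale. Of 4 genes of the H2A deubiquitinase complex 2 rose, ASXL3 by 4.71 (adjusted p = 7.25e-05) and ASXL1 by 1.41 (adjusted p = 7.28e-05), while ASXL2 changed by -0.63 (adjusted p = 0.00236) and BAP1 did not pass. Of 7 tested methyltransferases of lysine 4 and lysine 36, marks that oppose PRC2, 1 rose and 3 fell: WHSC1 (NSD2) changed by 0.59 (adjusted p = 0.00182) and MLL2 (KMT2D) by -1.05 (adjusted p = 0.00295).

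PCHi-C contacts were read from lists of HindIII fragment pairs with a CHiCAGO score, a weighted -log p for more read pairs than distance and technical noise would give, of at least 12. A fragment called in contact with a promoter bait is a promoter-interacting region (PIR). The 10 member baits had 55 PIRs in the merged ESC list and 49 in the merged NEC list, all on the bait's own chromosome. Over the members with a merged contact, 10 in ESC and 9 in NEC, the median was 4.5 and 3.0 PIRs, and it was 3.0 in both cell types over all 17453 and 17736 baits with a contact. The lists hold no read counts, so depth behind a single pair is unknown. The same fragment was called in both merged lists 15 times, which was 27.3% of the members' ESC PIRs and 30.6% of their NEC PIRs, against 44.2% and 44.3% over all calls. With fragments within 10 kb of each other counted as the same, the members' shares were 40.0% and 55.1% and those over all calls 65.2% and 64.9%. Of the members' merged calls 6 in ESC and 9 in NEC were also in both replicate lists of that cell type (10.9% and 18.4%), where all merged calls gave 22.9% and 21.1%.

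By replicate, the number of PIRs separated the cell types for 4 of the 10 baits. JARID2 had 9 and 8 by ESC replicate and 12 and 11 by NEC replicate, and SUZ12 had 3 and 2 against 4 and 4. AEBP2 and PHF19 went the other way, AEBP2 with 3 and 5 in ESC and 0 and 2 in NEC and PHF19 with 3 and 6 in ESC and 2 and 0 in NEC. Over all 21833 baits, 13.1% had replicate numbers without overlap that were higher in NEC and 12.8% ones that were higher in ESC, and 2 of the 10 members stood on each side, too few to set apart from this background. The other 6 baits overlapped between the cell types. They included EZH2, which had 15 PIRs in the merged ESC list and 5 in the merged NEC list but 5 and 3 by ESC replicate and 6 and 4 by NEC replicate: 10 of its 15 merged ESC PIRs were in neither replicate list.

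**Figure D4:**
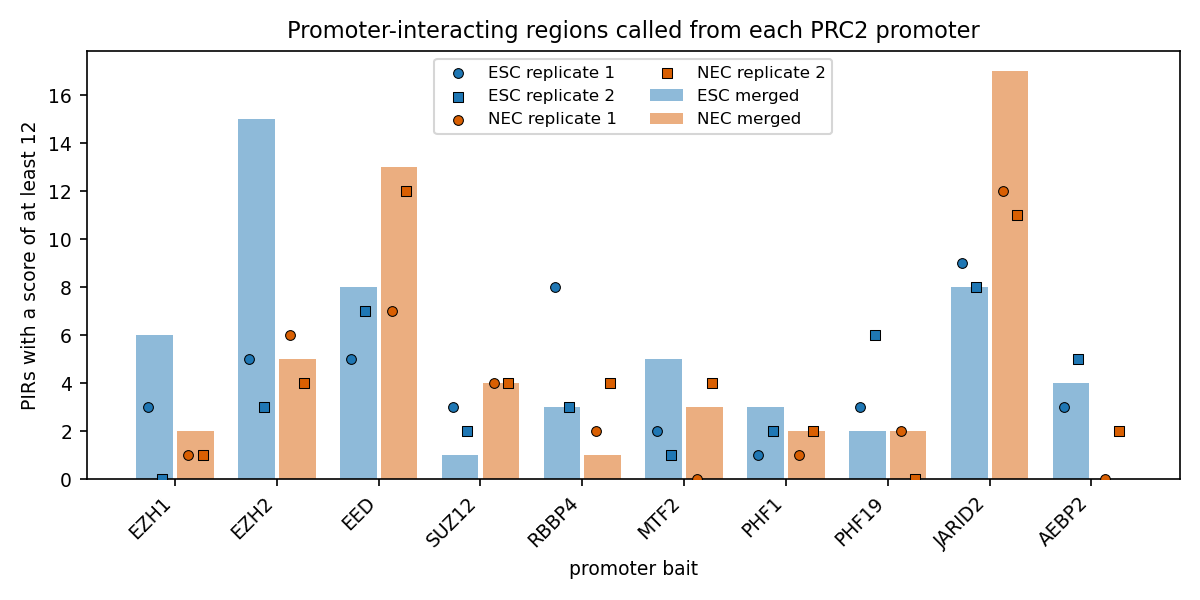
Number of PIRs with a score of at least 12 called from each PRC2 promoter bait, in the merged list of each cell type (bars) and in each replicate list (circles, replicate 1; squares, replicate 2). JARID2 had 8 PIRs in the merged ESC list and 17 in the merged NEC list, and EZH2 had 15 and 5 with replicates that overlapped.

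The JARID2 bait (chr6:15244191-15249546, GRCh37) called contacts on its upstream side alone, up to the CD83 promoter fragment 1131 kb away. The bait fragment also holds the start of the gene RP11-560J1.1, so these contacts cannot be assigned to the JARID2 start alone. The merged PIRs of the bait numbered 8 in ESC and 17 in NEC, of which 3 were shared. Of the NEC baits with a contact, 94.0% had fewer. The strongest NEC contact was with the fragment chr6:14211239-14214364, 1034 kb upstream, with a merged score of 24.38 and scores of 18.83 and 20.86 in NEC replicates 1 and 2. In ESC the same fragment had a merged score of 12.45 and 13.53 in ESC replicate 1, and was absent from the list of ESC replicate 2. The pair was thus called in both cell types, with both NEC replicates above the ESC replicate that called it. The fragment overlaps exons of 2 lncRNA genes without a symbol, ENSG00000285639 and ENSG00000286281, and holds the start of no protein-coding gene.

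This distal fragment is rich in CpG, the dinucleotide that PRC2 targets share, and the 300 bases of it with the most CpG are shown for that reason (chr6:14211316-14211615, GRCh37, plus strand), with each CpG in capitals. They hold the annotated start of the lncRNA ENSG00000285639 on the minus strand.
JARID2 distal PIR: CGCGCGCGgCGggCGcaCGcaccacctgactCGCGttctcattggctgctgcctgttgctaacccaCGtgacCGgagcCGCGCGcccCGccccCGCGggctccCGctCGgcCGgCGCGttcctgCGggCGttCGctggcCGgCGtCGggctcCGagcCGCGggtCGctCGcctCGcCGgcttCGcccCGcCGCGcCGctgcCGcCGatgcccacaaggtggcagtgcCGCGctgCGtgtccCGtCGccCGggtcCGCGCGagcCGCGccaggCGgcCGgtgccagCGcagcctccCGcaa
The window held 57 CpG at a GC content of 79.3%. The JARID2 promoter window above held 40 CpG, but was set by the gene start and not picked for its CpG. Of 3774 HindIII fragments of chromosome 6 with a length within 10% of its 3126 bp, only the fragment itself held a 300-base window with as many. Over its whole length it had 41.3 CpG per kb, which 0.424% of those fragments reached. Among the other merged PIRs of JARID2 the next in CpG density was the CD83 promoter fragment, called in the merged ESC list. It had 23.5 CpG per kb and 55 CpG in its densest 300 bases. Some merged PIRs of other members held more than 57 in 300 bases. The FNDC5 and ZBTB8A promoter fragments, PIRs of RBBP4, held 62 and 61. The RAB11FIP4 fragment, a PIR of SUZ12, held 61, and the PLEKHA5 fragment, a PIR of AEBP2, held 59.

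The fragments beside the distal JARID2 PIR carried calls as well. The next fragment, chr6:14214365-14217725, had NEC scores of 17.52 (merged), 13.77 and 16.77 (replicates 1 and 2) and was in no ESC list, and chr6:14279203-14282283, which overlaps the lncRNA LINC01108, had 18.30, 14.94 and 15.41 and was in no ESC list. The preceding fragment, chr6:14207194-14210832, was called in both ESC replicates (12.70 and 14.35) and in NEC replicate 1 (18.07) but not in NEC replicate 2. From the CD83 fragment to the fragment chr6:14340634-14346365, 903.4 kb upstream, a stretch set after the values were seen, there were 3 merged PIRs in ESC and 8 in NEC. The replicates had 6 and 3 there in ESC and 8 and 6 in NEC, which touch, while the highest score in each replicate was 14.44 and 14.42 in ESC and 18.83 and 20.86 in NEC, which do not. Nearer the gene, chr6:14918726-14933147, 320.9 kb upstream in an intron of a lncRNA gene, had 16.65 in the merged NEC list, 12.30 and 13.71 in the NEC replicates and 13.08 in ESC replicate 2. The strongest ESC contact of the JARID2 bait, chr6:15031631-15041876 at 210.1 kb, had a merged score of 14.64, was in ESC replicate 1 alone (12.24) and was in no NEC list. Calls from other baits gave JARID2 a replicated ESC contact, since the bait at chr6:14640406-14648971, 602.2 kb upstream, called its fragment at 16.89 in the merged ESC list and at 13.37 and 14.31 in ESC replicates 1 and 2. That pair was not in the merged NEC list or NEC replicate 1, and had 16.93 in NEC replicate 2. Other baits whose calls reached JARID2 did so in replicate lists alone, among them that of CD83 (19.14 in NEC replicate 2), that of RNF182 1321 kb upstream (16.60 for ESC replicate 2, 13.27 for NEC replicate 1) and that of DTNBP1 415.8 kb downstream (13.58 in NEC replicate 1).

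**Figure D5:**
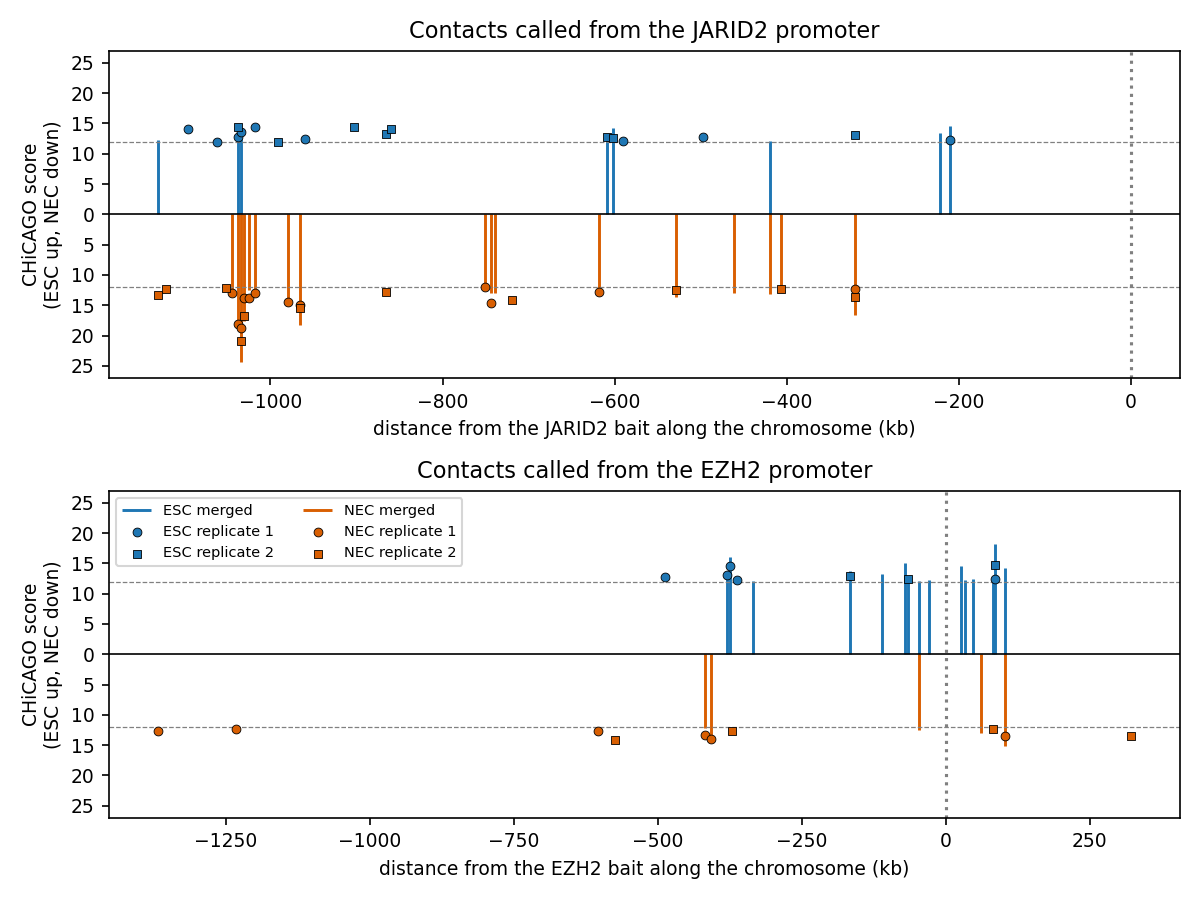
CHiCAGO scores of the contacts called from the JARID2 bait (top) and the EZH2 bait (bottom) by distance along the chromosome in kb, with ESC plotted upwards and NEC downwards. Lines are the merged lists, circles and squares are replicates 1 and 2, and the dashed lines mark the score of 12. The cluster around the fragment 1034 kb before JARID2 reached 24.38 in the merged NEC list and 13.68 in the merged ESC list.

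The EZH2 bait (chr7:148570690-148584979) had its strongest ESC contact with chr7:148661295-148666083, 85.85 kb upstream and 34.1 kb from the nearest protein-coding gene, PDIA4. Its scores were 18.20 in the merged ESC list and 12.36 and 14.80 in ESC replicates 1 and 2, and it was in no NEC list. In NEC the strongest was chr7:148680141-148681282, 102.9 kb upstream, which overlaps the small RNA gene RNY3, with 15.16 merged and 13.51 in NEC replicate 1, and with 14.15 in the merged ESC list. Within 100 kb of the bait there were 9 merged PIRs in ESC and 2 in NEC, but only 1 and 2 by ESC replicate and 0 and 1 by NEC replicate. Seen from the other side, the bait at chr7:148726472-148734154 called the EZH2 fragment in both ESC replicates (12.64 and 13.96) and in NEC replicate 1 (13.69).

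The SUZ12 bait (chr17:30262275-30270722) had the only contact of a member's own bait that was in all 6 lists, with the promoter fragment of UTP6, a ribosome biogenesis gene 37.91 kb upstream (chr17:30222226-30234950). ESC replicates 1 and 2 scored 15.71 and 15.28 and NEC replicates 1 and 2 scored 17.33 and 12.01, which overlap. UTP6 had 94.3 and 103 CPM in ESC and 53.1 and 62.9 CPM in NEC (log2 fold change -0.77, adjusted p = 0.00159), next to -0.61 for SUZ12. The promoter fragments of RAB11FIP4 (547 kb, chr17:29713801-29725628) and RHBDL3 (326 kb, chr17:30589496-30594560) were called in the merged list and both replicates of NEC and in no ESC list. Their NEC scores were 15.35, 17.76 and 14.42 for RAB11FIP4 and 14.98, 15.78 and 12.76 for RHBDL3, and in RNA the first changed by -0.65 (adjusted p = 0.00105) and the second by 0.96 (adjusted p = 0.00610) on the log2 scale.

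Among the contacts called from the 10 member baits, 4 merged NEC contacts were in both NEC replicates and in no ESC list, those of SUZ12 with RAB11FIP4 and RHBDL3 and the 2 JARID2 fragments named above. The same held for 2 merged ESC contacts, that of EZH2 at 85.85 kb and that of AEBP2 with the PDE3A promoter fragment. The shares over all merged calls were 5.67% in NEC and 5.62% in ESC, to be set against 4 of 49 and 2 of 55. These contacts were named after their values were seen.

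The EED bait (chr11:85952696-85957638) had 8 merged PIRs in ESC and 13 in NEC, and 5 and 7 against 7 and 12 by replicate. Its strongest NEC contact lay in an intron of PICALM, 201.5 kb upstream (chr11:85752325-85755027), with 16.17 merged, 12.96 and 12.74 in the NEC replicates, and 12.42 in the merged ESC list. The strongest ESC contact was with the promoter fragment of CCDC83 (392.2 kb, chr11:85559533-85566329), at 13.67 in ESC and 15.36 in NEC, and CCDC83 had no count in any RNA-seq library. Called in the other direction, from CCDC83 to EED, the pair was in all 6 lists, scoring 17.81 and 14.88 in ESC replicates 1 and 2 and 17.85 and 13.41 in NEC replicates 1 and 2. The TMEM126A bait called EED at 21.58 in the merged ESC list and at 12.73 in the merged NEC list. Its scores were 20.22 and 22.22 in the ESC replicates and 16.04 in NEC replicate 1.

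The RBBP4 bait (chr1:33116507-33119562) contacted the promoter fragment of ZBTB8A, a zinc finger gene 112.7 kb upstream (chr1:33004442-33006305), with 20.37 in the merged NEC list, 15.08 and 16.72 in the NEC replicates, 14.21 in the merged ESC list and 15.88 in ESC replicate 2. It was the only RBBP4 PIR in the merged NEC list. The strongest ESC contact was with the SYNC promoter fragment (48.45 kb, chr1:33160962-33172003), at 14.43, and was in no NEC list. In RNA SYNC changed by -0.34 on the log2 scale (adjusted p = 0.0334, edgeR), and ZBTB8A did not pass (log2 fold change 0.46).

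Among the Polycomb-like genes PHF19 had the highest score of any member. Its bait (chr9:123638967-123646230) contacted the promoter fragment of TRAF1, an adaptor of tumour necrosis factor receptors, 48.4 kb upstream (chr9:123690134-123691855), with merged scores of 27.14 in ESC and 24.78 in NEC. The replicate scores were 18.66 and 20.23 in ESC and 22.89 in NEC replicate 1, and NEC replicate 2 did not list the pair. TRAF1 rose from 1.38 and 1.74 CPM to 5.10 and 4.95 CPM (log2 fold change 1.68, adjusted p = 0.00185), while PHF19 did not pass. The PHF1 bait (chr6:33373874-33381237) contacted the promoter fragment of KIFC1, a kinesin of cell division, 16.56 kb upstream (chr6:33358373-33363613), at 14.40 in the merged ESC list and 14.25 in the merged NEC list, in no replicate list. KIFC1 rose by 0.70 on the log2 scale (adjusted p = 0.000811) and PHF1 by 1.02.

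MTF2 stood out as a target of other baits more than as a bait. Its bait (chr1:93542060-93545657) had 5 merged PIRs in ESC and 3 in NEC, but 2 and 1 by ESC replicate and 0 and 4 by NEC replicate. The strongest was at 13.32 in ESC (chr1:93342338-93350404, in DIPK1A) and at 12.70 in NEC (chr1:93639109-93648110, the promoters of CCDC18 and TMED5). In RNA TMED5 changed by -0.54 on the log2 scale (adjusted p = 0.00503, edgeR), and CCDC18 did not pass (log2 fold change 0.26). From other baits, the MTF2 fragment was called 6 times in the merged ESC list and 7 times in the merged NEC list. In the merged ESC list the highest score came from chr1:93566378-93572383, 25.5 kb away within MTF2 itself, at 26.08. This pair had 19.89 and 18.21 in the ESC replicates, 16.61 in the merged NEC list and 19.23 in NEC replicate 1. In the merged NEC list the highest score came from the bait at chr1:93474285-93478864, at 21.82. That bait called the MTF2 fragment in all 6 lists. Its scores were 23.27 and 12.75 in ESC replicates 1 and 2 and 21.97 and 12.46 in NEC replicates 1 and 2.

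The EZH1 bait (chr17:40895876-40898947) had 6 merged PIRs in ESC and 2 in NEC, but 3 and 0 by ESC replicate and 1 and 1 by NEC replicate. Of the 6 merged ESC PIRs 3 were in neither replicate list. Both merged NEC PIRs were also called in ESC. One was the fragment with the promoters of RAMP2 and VPS25, 19.49 kb upstream (chr17:40907425-40926376), at 12.34 in ESC and 16.71 in NEC, and the other the promoter fragment of PSMC3IP, at 16.87 in ESC and 16.15 in NEC. RAMP2, VPS25 and PSMC3IP did not pass the test in RNA (log2 fold changes of -0.05, -0.07 and -0.02), while EZH1 rose by 1.17. The strongest ESC contact was with the shared promoter fragment of CCDC56 and CNTD1 (54.74 kb, chr17:40949597-40954700). It had 17.95 merged and 14.13 in ESC replicate 1 and was in no NEC list. In RNA CNTD1 changed by -0.81 on the log2 scale (adjusted p = 0.00531, edgeR), and CCDC56 did not pass (log2 fold change 0.21).

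The AEBP2 bait (chr12:19554993-19562051) was the only member bait with no PIR in the merged NEC list, against 4 in ESC. The RefSeq promoter window listed for AEBP2 was not found letter for letter inside this bait. The bait was set by the gene start in the count table, so its contacts cannot be assigned to that RefSeq start. Its strongest contact lay within the gene, 42.52 kb downstream (chr12:19594164-19607918), with 24.45 merged and 24.23 and 13.25 in the ESC replicates, and 13.84 in NEC replicate 2, so the pair was not absent from NEC. The contact with the PDE3A promoter fragment, 964 kb downstream (chr12:20521213-20524412), had 13.67 and 12.61 in the ESC replicates and was in no NEC list, and PDE3A, a phosphodiesterase, rose by 2.78 on the log2 scale (adjusted p = 0.000285).

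Of the members' 55 merged ESC PIRs 21 (38.2%) were themselves promoter baits, and of their 49 merged NEC PIRs 14 (28.6%) were, where 31.6% of all merged calls in each cell type joined a bait to another bait. The members ranged widely: none of the 15 ESC and 5 NEC PIRs of EZH2 was a bait, JARID2 had 2 of 8 in ESC and 0 of 17 in NEC and EED 2 of 8 and 3 of 13, while 5 of 6 ESC PIRs of EZH1 and all 4 of AEBP2 were baits.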

How the data were processed

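RNA-seq reads had been trimmed, mapped to GRCh37 (hg19 in the submitters' processing notes, which name TopHat2 2.0.8b and Bowtie 1.0.0) and counted per gene in Seqmonk on Ensembl gene models without regard to strand, and the authors deposited raw read counts per gene. PCHi-C read pairs had been filtered with HiCUP and scored by the authors with CHiCAGO, and the deposited lists hold a score for each fragment pair at or above 12, per replicate and for the merged replicates of each cell type.

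The PRC2 members and the gene lists were chosen with earlier results of these data known. Counts were tested with edgeR 4.0.16 (R 4.3.3) by the quasi-likelihood test with TMM normalization and Benjamini-Hochberg adjustment over all 17564 genes that passed edgeR's filter on low counts (filterByExpr, minimum 10), and was tested on simulated counts first. CPM used the TMM library sizes. With 2 libraries a group, p-values measure the spread between these samples only. DESeq2 1.42.0, other normalizations and filters, a replicate block and leaving out each library were run as alternatives. Replicate numbers did not pair the libraries (correlation of their deviations 0.0485). Levels per kilobase used merged GENCODE exons on GRCh37 within the gene's limits in the count table.

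A member's bait is the fragment holding its gene start in the count table. Distances run between fragment midpoints. From each list, up to 4 genes past the test with the largest fold change were named, and from each bait the PIR with the highest merged score in each cell type and any PIR in all 4 replicates. Other contacts were named after their values were seen. KMT2B was not analysed here. A further gene that the naming rule picks is not reported here.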

Additional observations from a re-analysis of the deposited data

How the results depend on the processing

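Of 100 log2 fold changes of the members recomputed under 10 alternatives, none changed direction past the test, and 10 lost their call, 6 of them for EED, 2 for RBBP4 and 1 each for EZH2 and MTF2. The members that passed numbered 9, 8 under the DESeq2 test and with no filter on low counts, and 5 at an adjusted p under 0.01. They numbered 6 to 8 when 1 library was left out. JARID2 passed the fold change threshold, and 0 members did with library size alone (log2 fold change of JARID2 -1.47) or without NEC replicate 1 (-1.39); leaving out a library gave 0 to 1. The count of genes called was 10738, from 7750 at an adjusted p under 0.01 to 11775 with no filter, and 7901 to 10792 when a library was left out. A fit with the replicate number as a block called 9 members and 10985 genes, and no member's call changed.

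The EZH2 share was 81.1% in ESC and 72.6% in NEC with raw counts and 88.2% and 82.2% with the canonical transcript length, an alternative chosen after seeing the data, and it stayed higher in ESC; single libraries gave 71.1% to 76.6% in ESC and 59.6% to 67.4% in NEC. The members' PIRs numbered 9 in ESC and 14 in NEC at a score of at least 15, and 6 and 9 when called in both replicates, so that the order of the cell types (55 and 49 in the merged lists) turned. Single replicates gave 37 to 42 in ESC and 35 to 44 in NEC. Counted within 10 kb, 22 of the ESC PIRs and 27 of the NEC PIRs were shared, against 15, and all calls moved from 44.2% to 65.2% in ESC and from 44.3% to 64.9% in NEC. The cause of these shifts was not tested. With 2 libraries a group and no read counts per pair, differences in contact strength could not be tested.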
